A study of Mus musculus with 12 samples.

Results

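Semaphorins, ephrins and Slits are guidance cues, first studied in growing axons, and they and their receptors are also made by keratinocytes. A set of 59 such genes was followed across sorted mouse epidermal cells: the secreted class 3 semaphorins, the membrane-bound semaphorins of classes 4 to 7, the plexins and neuropilins that receive them, the ephrins and Eph receptors, and the Slits with their Robo receptors. Members were taken by gene symbol alone, out of 18193 genes measured, and each gene was read through 1 probe set, the single-gene probe set with the highest mean log2 intensity over the 12 arrays. Semaphorins signal through plexins, and the secreted ones mostly need a neuropilin as coreceptor. Ephrins are anchored to the cell surface and meet Eph receptors on a neighbouring cell, so that both cells can receive a signal. Slits are secreted repellents that bind Robo receptors, and all of these systems act on cell adhesion and on the actin cytoskeleton.

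All 12 samples came from mice with 4 transgenes, namely pTRE-H2B-GFP under its driver K5-tTA, and Rosa-tdTomato with K14-CreER. Doxycycline in the food (1 g/kg, 2 weeks) shut off H2B-GFP, a single tamoxifen dose of 75 mg/kg activated CreER, and the mice were killed 1 week after it, at second telogen, the resting phase of the hair cycle. The cells fall into 5 groups: BL LRC and BL non-LRC with 3 samples each, and SL LRC, SL non-LRC and GL with 2 samples each. BL, SL and GL are taken to mean basal, spinous and granular layer, and LRC label-retaining cell, which is known of the study and not spelled out in its labels. The keratin 5 and keratin 14 promoters limit the transgenes to keratinocytes of the basal layer and their progeny. A cell loses H2B-GFP by dividing, and a low label can also follow low expression before doxycycline. The labels give neither the sorting gates nor the ages, and they do not say that the samples came from separate animals, so every p-value reflects only the spread among these samples, which may be technical. RNA (5 ng) was amplified and hybridised to an expression array. In such bulk samples, fewer cells that express a gene and less of its RNA per cell cannot be told apart.

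Every array had a 2% trimmed mean of 500.0, and the background floor, taken as the 95th percentile of 27 bacterial control probe sets, lay between 22.4 and 42.6. Intensity of the BioB hybridisation control split the arrays into a low set of 4 (460.7 to 522.5) and a high set of 8 (2819 to 3844). The low set held BL LRC replicate 1, BL non-LRC replicate 1 and both SL non-LRC arrays, so in SL the set and the label class cannot be told apart, and an array-set term borrows its estimate from BL. BL LRC replicate 1 and BL non-LRC replicate 1 were also the 2 arrays with no Y-linked gene above the floor. Krt5 and Krt14, keratins of the basal layer, were not called different between GL and BL (adjusted p = 0.271 and 0.626). The integrin Itga6 fell by 1.75 on the log2 scale in GL, the cornified envelope genes Ivl and Lor were 7.84-fold and 6.88-fold higher, and Flg was at least 13.0-fold higher. Of the other granular markers, Klk7 (28.5-fold), Casp14 (1.89-fold), Hrnr (2.88-fold with values raised to the floor) and Rptn (at least 9.3-fold) were also higher in GL than in BL, while Tgm3 was 8.41-fold lower, and against SL only Lor and Klk7 were called higher and Tgm3 lower. The basal keratin Krt15 was 1.78-fold lower in GL than in BL (adjusted p = 0.000243). GL thus differed from BL in most granular genes without a called loss of Krt5 or Krt14, and it is called by its label.

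Markers of other cells differed between the groups. The summed intensity of 8 Langerhans and myeloid markers was 36100 to 64000 in GL and 4266 to 4401 in BL LRC, and that of 6 T cell markers was 8846 to 26540 in GL and at most 8024 elsewhere. Thy1 made up most of the T cell sums in BL (3144 to 7216) and was not raised in GL (5220 and 1372). Cd3e read 6784 and 1894 in GL and at most 485.6 elsewhere. The 7 melanocyte markers summed to 2144 to 2963 in GL and to at most 1281 elsewhere. Bulge and outer root sheath markers (8 genes) summed to 2939 to 3333 in BL LRC and 28990 to 29200 in GL. Of these, Sox9 read 501.9 to 616.6 in BL LRC and 11390 and 10950 in GL. Krt24 went the other way, with 171.1 to 376.4 in BL LRC and 129.1 and 143.8 in GL. Infundibulum and sebaceous markers (9 genes) summed to 11000 to 13650 in BL LRC against 29800 to 60740 in BL non-LRC, and to 23710 to 25350 in SL LRC against 60650 to 71130 in SL non-LRC. Of 10 endothelial markers, between 4 and 6 were never above the floor in a group, and Tek was above it on no array. The part of these other cells in the results that follow was not tested.

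Promoter sequence is shown for 6 genes that carry the contrasts described here: Sema3c and Robo1, which fell from BL to GL, Efna5 and Ephb3, which rose in GL, and Sema3d and Sema3e, which differed between the label classes in opposite directions. Each stretch is the 250 bases before the annotated start, read 5′ to 3′ on the gene's strand, from RefSeq on GRCm38.p6. Their places are chr5:17574566-17574815 (plus strand) for Sema3c, chr16:72662899-72663148 (plus) for Robo1, chr17:62881318-62881567 (minus) for Efna5, chr16:21204545-21204794 (plus) for Ephb3, chr5:12382916-12383165 (plus) for Sema3d and chr5:14025026-14025275 (plus) for Sema3e. Capitals mark matches to the SP/KLF box GGGCGG on either strand.
Sema3c: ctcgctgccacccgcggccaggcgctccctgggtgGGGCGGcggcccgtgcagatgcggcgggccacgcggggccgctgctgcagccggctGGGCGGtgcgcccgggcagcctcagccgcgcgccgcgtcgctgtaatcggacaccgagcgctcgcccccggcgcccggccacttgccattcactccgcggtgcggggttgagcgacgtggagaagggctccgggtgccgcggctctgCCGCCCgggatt
Robo1: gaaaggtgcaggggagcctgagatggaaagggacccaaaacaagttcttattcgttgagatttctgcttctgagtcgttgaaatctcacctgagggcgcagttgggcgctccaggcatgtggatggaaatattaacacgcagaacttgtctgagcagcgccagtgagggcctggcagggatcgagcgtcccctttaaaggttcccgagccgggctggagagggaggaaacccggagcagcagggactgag
Efna5: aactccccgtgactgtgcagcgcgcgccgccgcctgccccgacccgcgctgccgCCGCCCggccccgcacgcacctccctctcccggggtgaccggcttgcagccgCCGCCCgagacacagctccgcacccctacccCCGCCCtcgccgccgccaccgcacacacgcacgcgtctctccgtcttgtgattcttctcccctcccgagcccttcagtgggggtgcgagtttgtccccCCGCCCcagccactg
Ephb3: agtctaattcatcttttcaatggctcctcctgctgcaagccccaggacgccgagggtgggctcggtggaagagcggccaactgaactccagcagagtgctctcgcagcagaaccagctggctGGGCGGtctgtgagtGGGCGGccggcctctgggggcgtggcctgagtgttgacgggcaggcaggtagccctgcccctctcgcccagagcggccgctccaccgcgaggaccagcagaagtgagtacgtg
Sema3d: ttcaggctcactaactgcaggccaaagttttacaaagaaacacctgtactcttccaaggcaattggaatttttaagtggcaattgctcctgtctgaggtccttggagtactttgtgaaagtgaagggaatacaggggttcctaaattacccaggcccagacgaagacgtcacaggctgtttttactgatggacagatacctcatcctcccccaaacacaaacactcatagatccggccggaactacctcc
Sema3e: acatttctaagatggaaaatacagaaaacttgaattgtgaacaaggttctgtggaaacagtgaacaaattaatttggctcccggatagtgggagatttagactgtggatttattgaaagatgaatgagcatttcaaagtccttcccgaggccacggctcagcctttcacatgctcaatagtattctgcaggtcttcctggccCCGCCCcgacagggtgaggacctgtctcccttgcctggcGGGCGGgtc
The promoters of Sema3c, Efna5, Ephb3 and Sema3e hold 3, 4, 2 and 2 matches, and those of Robo1 and Sema3d hold 0. Of the 2 genes that fell towards GL, Sema3c has these letters and Robo1 does not, and both genes that rose have them.

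The table of promoters held 52 of the 59 genes, with 68 start sites. Matches to GGGCGG stood in 49 of these 68 (72.1%), against 32.7% of all 32851 promoters of the same length. The AP-1 site TGANTCA was in 3 of 68 (4.41%, against 6.75% of all), the GRHL site AACNGGTT in 2 (2.94% against 1.79%), the GATA site AGATAA in 3 (4.41% against 9.99%) and the cyclic AMP response element TGACGTCA in 1 (1.47% against 1.55%). Both strands were searched, and the AP-1 site and the cyclic AMP response element share their outer letters. None of the 6 printed promoters held one of these other motifs. A match is a description of the sequence and shows no binding.

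Of the 59 genes, 33 (55.9%) were above the floor on all 12 arrays, close to the 57.0% of all 18193 genes. All 5 ephrin-A genes were, and so were 2 of 3 ephrin-B genes, 8 of 13 membrane semaphorins, 5 of 9 plexins and 3 of 4 EphB receptors. Fewer were among EphA receptors (3 of 9), secreted semaphorins (3 of 7) and Robo receptors (1 of 4). Epha10, Epha5, Epha6, Epha8, Ephb1, Robo4, Sema3a and Slit2 were above the floor on at most 3 arrays. Robo4 is an endothelial receptor, and its 1 array above the floor read 40.1. The neuropilin Nrp1 was above the floor on 4 arrays, while Nrp2 was above it on all 12. A moderated F test over the 5 groups called 23 of the 59 genes (39.0%), against 16.9% of all genes.

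In the comparisons that follow, a gene is called at an adjusted p under 0.05 from limma, with the Benjamini-Hochberg adjustment over all 18193 genes. Differences are in log2 intensity, with the SE of the model that all 12 arrays share. Of the 59 genes, 27 were called in at least 1 of 5 comparisons and 32 in none. The matching share over all genes was not counted, so this count has no background beside it. Each comparison below is given with its own share of all genes. The comparisons of SL with BL, GL with SL and GL with BL share arrays and are not independent of each other.

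**Figure D1:**
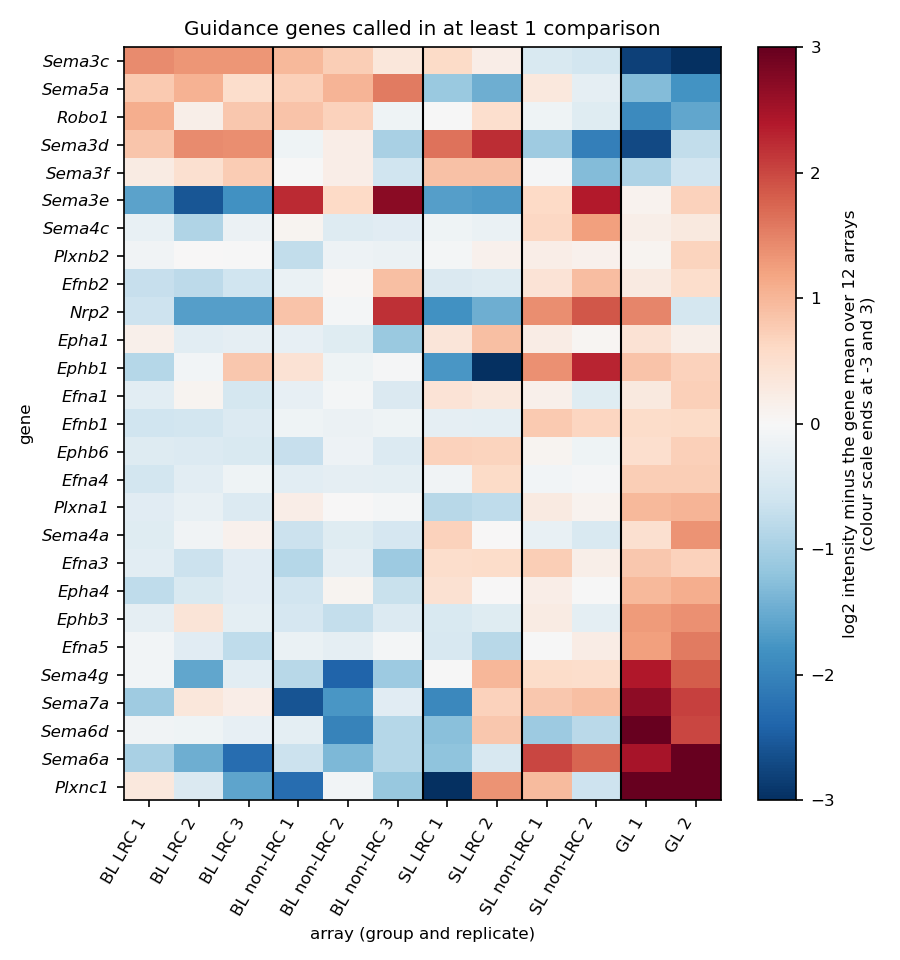
Log2 intensity of the 27 called genes on each of the 12 arrays (columns, by group and replicate) minus the gene's mean over all arrays, with red above and blue below that mean and the colour scale ending at -3 and 3. Genes are ordered by their GL minus BL difference, from Sema3c (-3.95) to Plxnc1 (4.28).

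Label-retaining cells of BL were compared first with their unlabelled counterparts, 3 arrays against 3. A secreted semaphorin, a neuropilin and an ephrin were lower in BL LRC, and no guidance gene was called higher. These 3 of 59 (5.08%) stand against 1.53% of all genes called in either direction and 1.23% called lower. Sema3e, a class 3 semaphorin that binds plexin-D1 without a neuropilin, read 37.8, 19.5 and 32.5 on the BL LRC arrays and 547, 174 and 752 on the BL non-LRC arrays. The groups did not overlap, and 2 of the 3 BL LRC arrays were above the floor. The difference was 14.4-fold (log2 difference -3.85 ± 0.59, adjusted p = 0.0016), and it was 12.6-fold with values under the floor raised to it. Another Sema3e probe set gave -3.65 (adjusted p = 0.00679), and 2 more gave -2.61 and -2.08 (adjusted p = 0.239 and 0.0973). Its call held without any 1 array, with an adjusted p of at most 0.018.

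Nrp2, the coreceptor of class 3 semaphorins such as Sema3f, read 137, 67.2 and 67.3 in BL LRC against 384, 203 and 967 in BL non-LRC. All 3 unlabelled arrays were higher, and they spread widely among themselves. The difference was 4.95-fold (log2 difference -2.31 ± 0.56, adjusted p = 0.0491). Efnb2, a transmembrane ephrin and ligand of EphB4 and other EphB receptors, read 3435, 3191 and 3652 in BL LRC against 4841, 5698 and 10398 in BL non-LRC, with no overlap. It was 1.93-fold lower (log2 difference -0.95 ± 0.22, adjusted p = 0.0382). Both calls lie near the threshold, and each was lost when any 1 of 8 arrays was left out. For Nrp2 these were BL LRC 2 and 3, BL non-LRC 1 and 3 and all 4 SL arrays, with -1.71 (adjusted p = 0.27) without BL non-LRC 3. For Efnb2 they were all 3 BL LRC arrays, BL non-LRC 3, both SL LRC arrays and both GL arrays, with -0.90 (adjusted p = 0.145) without BL LRC 2. Without the 2 arrays that lacked Y-linked signal, Nrp2 gave -2.72 (adjusted p = 0.107), while Efnb2 (-1.17, adjusted p = 0.0364) and Sema3e (-3.85, adjusted p = 0.0275) kept their calls. Other probe sets gave -3.38, -4.33 and -0.68 for Nrp2 (adjusted p = 0.00463, 0.00561 and 0.864, the last above the floor on 1 array) and -0.95, -1.16 and -0.87 for Efnb2 (adjusted p = 0.0262, 0.0363 and 0.161). Several marker lists separated these groups too. Summed intensity was lower in BL LRC, without overlap, for infundibulum and sebaceous, bulge and outer root sheath (2939 to 3333 against 5923 to 9000), Langerhans and myeloid (4266 to 4401 against 5741 to 6931) and pericyte and smooth muscle markers (411.6 to 561.3 against 586.4 to 695.5). Epcam made up most of the Langerhans and myeloid sums (2822, 3240 and 3209 against 4584, 4755 and 4557). Cd74 of the same list overlapped (479.1 to 672.2 against 339.5 to 1426). Among pericyte and smooth muscle markers, Cspg4 was lower in BL LRC (192.3 to 269.0 against 385.7 to 437.5). Pdgfrb was higher there (58.8 to 93.98 against 12.36 to 53.78). Of the bulge and outer root sheath markers, Sox9 was lower in BL LRC (501.9 to 616.6 against 1701 to 2973). Krt24 of that list overlapped (171.1 to 376.4 against 167.7 to 278.0). Summed intensity was higher in BL LRC for spinous (88540 to 106200 against 57680 to 71180), granular (6244 to 7679 against 4216 to 6108) and hair shaft and inner root sheath markers (9163 to 11110 against 6509 to 8250). Gata3 made up most of the hair shaft and inner root sheath sums. It read 8751, 9836 and 10820 in BL LRC against 6694, 7945 and 6225 in BL non-LRC. Krt27, Krt73 and Krt28 of that list were never above the floor in either group. Tgm3 and Casp14 made up most of the granular sums. Tgm3 overlapped (2592 to 4445 against 1566 to 3468), and Casp14 was higher in BL LRC (1842 to 3298 against 1055 to 1829). Ivl (108.6 to 224.0 against 122.3 to 244.2) and Klk7 overlapped, and Flg and Rptn were never above the floor in either group. Of the spinous markers, Dsc1 overlapped (229.5 to 432.8 against 373.6 to 640.8).

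No class 3 semaphorin other than Sema3e was called in BL. Sema3c read 5728, 5337 and 5342 in BL LRC against 4214, 3557 and 2722 in BL non-LRC, with no overlap, and missed the threshold (log2 difference 0.67 ± 0.18, adjusted p = 0.0844). BL LRC and BL non-LRC arrays of the same replicate number deviated together, and with that number as a block within BL the same difference had an adjusted p of 0.0419. Sema3d (1.51 ± 0.45, adjusted p = 0.133) and Sema3f (0.63 ± 0.30, adjusted p = 0.44) had the same sign, and Sema3a, Sema3b and Sema3g, which were near the floor, gave -0.34, 0.26 and 0.99 (adjusted p = 0.93, 0.944 and 0.832).

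In SL, 2 label-retaining arrays were compared with 2 unlabelled ones. Sema3c, Sema3d and Sema3f were higher in SL LRC, and 9 other guidance genes were lower, so that 12 of 59 were called (20.3%) against 4.19% of all genes, of which 1.49% were higher and 2.7% lower. The higher ones were all secreted semaphorins. The lower ones were Sema3e, the membrane semaphorins Sema4c, Sema5a and Sema6a, the receptors Nrp2, Plxna1 and Ephb1, and the ephrins Efnb1 and Efnb2. Sema3e, Nrp2 and Efnb2, the 3 genes called in BL, were all lower here too. With a term for the array set, which in SL coincides with the label class, 5 were called: Sema3c, Sema3d, Efnb1, Efnb2 and Sema5a.

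Among the secreted semaphorins, Sema3d read 1196 and 1810 in SL LRC and 184 and 93.6 in SL non-LRC. It was 11.2-fold higher in the label-retaining cells (log2 difference 3.49 ± 0.55, adjusted p = 0.00144), and a second probe set gave 3.37 (adjusted p = 0.00212). Sema3f read 1494 and 1488 against 801 and 331, a 2.9-fold difference (1.53 ± 0.36, adjusted p = 0.0218). Sema3c read 3178 and 2466 against 1565 and 1452 and was 1.86-fold higher (0.89 ± 0.22, adjusted p = 0.0284). Neither gene's groups overlapped. The SL non-LRC arrays stood further apart for Sema3f than for Sema3c, and the SL LRC arrays closer together. Sema3e went the other way, with 36.5 and 35.6 against 175 and 600, and 1 of the 2 SL LRC arrays was above its floor (-3.17 ± 0.72, adjusted p = 0.0174, or 8.32-fold with values under the floor raised to it).

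The call for Sema3d held without any 1 array (adjusted p at most 0.0385). That for Sema3f was lost without SL LRC 1, SL LRC 2 or SL non-LRC 2, with 0.90 (adjusted p = 0.301) without the last. That for Sema3c was lost without any 1 of the 4 SL arrays, with 0.71 (adjusted p = 0.259) without SL LRC 1, and its second probe set gave 0.39 (adjusted p = 0.475). That for Sema3e was lost without SL LRC 1, SL LRC 2 or SL non-LRC 2, with -2.28 (adjusted p = 0.259) without the last. With the array-set term Sema3f gave 1.45 (adjusted p = 0.174) and Sema3e gave -2.58 (adjusted p = 0.232). Of these 4 ligands, Sema3d alone kept its call both without each array and with the array-set term. Without the variance trend in limma, Sema3d lost its call too (adjusted p = 0.0549).

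Among the membrane semaphorins, Sema6a, a transmembrane ligand of A-type plexins, read 98.9 and 164 in SL LRC and 920 and 767 in SL non-LRC. It was 6.59-fold lower in the label-retaining cells (-2.72 ± 0.47, adjusted p = 0.00309), and its call held without any 1 array but not with the array-set term (-2.05, adjusted p = 0.0971). Sema5a, whose extracellular part carries thrombospondin repeats, read 606 and 473 against 1624 and 1082 (-1.31 ± 0.30, adjusted p = 0.0174). Its groups did not overlap, but its other probe sets gave -0.86, -0.56 and 1.92, none of them called (adjusted p = 0.324, 0.521 and 0.424), and the call was lost without SL LRC 1, SL LRC 2 or SL non-LRC 1 (-1.01, adjusted p = 0.175, without the last). Sema4c, a ligand of plexin-B2, read 908 and 869 against 1544 and 2340 (-1.10 ± 0.29, adjusted p = 0.0395). It was lost without SL LRC 1, SL LRC 2, SL non-LRC 2, GL 1 or GL 2 (-0.80, adjusted p = 0.358, without SL non-LRC 2) and with the array-set term (-0.72, adjusted p = 0.408).

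Of the receptors, Nrp2 read 60.4 and 77.4 in SL LRC and 560 and 778 in SL non-LRC, a 9.65-fold difference (-3.27 ± 0.68, adjusted p = 0.0107). It was lost without SL LRC 1, SL LRC 2 or SL non-LRC 2 (-3.03, adjusted p = 0.129, without the last), with the array-set term (-2.86, adjusted p = 0.153) and over the mean of its probe sets (-1.94, adjusted p = 0.155). Plxna1, a signalling receptor for class 3 semaphorins together with neuropilins and for class 6 semaphorins alone, read 1484 and 1576 against 3213 and 2869. It was 1.99-fold lower (-0.99 ± 0.18, adjusted p = 0.00367), its call held without any 1 array (adjusted p at most 0.0442), and with the array-set term it gave -0.89 (adjusted p = 0.051), while its second probe set gave -0.45 (adjusted p = 0.72). Ephb1 was above the floor on both SL non-LRC arrays (37.4 and 69.6) and on neither SL LRC array. It was at least 1.37-fold lower there (adjusted p = 0.0178), and the call was lost without SL LRC 2 or either SL non-LRC array (adjusted p = 0.176 without the last) and with the array-set term (adjusted p = 0.102).

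Both B-type ephrins above the floor on all arrays were lower in SL LRC. Efnb1, an X-linked ephrin, read 1242 and 1224 in SL LRC and 2577 and 2342 in SL non-LRC, a 1.99-fold difference (-0.99 ± 0.19, adjusted p = 0.00602), and its other probe sets gave -1.11 and -1.10 (adjusted p = 0.0416 and 0.0471). The pairs of arrays were tight and did not overlap. Without SL non-LRC 1 it gave -0.93 (adjusted p = 0.0551), the only array whose removal ended the call. Efnb2 read 4081 and 4206 against 7389 and 10440 (-1.08 ± 0.27, adjusted p = 0.0292). Its 3 other probe sets were also called, with differences from -1.67 to -1.25, and the call was lost without SL LRC 1, SL LRC 2 or SL non-LRC 2 (-0.84, adjusted p = 0.289, without the last). Marker lists separated the SL groups as well. Summed intensity was lower in SL LRC, without overlap, for infundibulum and sebaceous, bulge and outer root sheath (4916 to 5138 against 16620 to 18980), Langerhans and myeloid (5925 to 6832 against 12490 to 18950), melanocyte (623.6 to 652.7 against 1187 to 1281) and pericyte and smooth muscle markers (478.5 to 495.9 against 624.3 to 660.3). Epcam made up most of the Langerhans and myeloid sums (4876 and 5606 against 11680 and 9667). Cd74 was lower in SL LRC as well (543.9 and 624.9 against 3676 and 1572). Among bulge and outer root sheath markers, Sox9 was lower in SL LRC (1205 and 1172 against 6591 and 6081). Krt24 was higher there (348.8 and 441.9 against 134.8 and 21.66), and so was Cd34 (47.96 and 43.61 against 2.823 and 15.52). Of the pericyte and smooth muscle markers, Acta2 was lower in SL LRC (78.34 and 48.37 against 275.6 and 123.3). Pdgfrb was not (80.1 and 89.43 against 79.86 and 27.33), and Cspg4 overlapped. Summed intensity was higher in SL LRC for spinous (140300 to 145200 against 75950 to 89580), hair shaft and inner root sheath (12360 to 13730 against 5917 to 6589), basal (102300 to 115200 against 98890 to 99410) and Schwann and nerve markers (873.6 to 878.3 against 593.0 to 645.6). Single genes made up much of the hair shaft and the Schwann and nerve sums. Gata3 read 11400 and 11760 in SL LRC against 5270 and 4155 in SL non-LRC. Hoxc13 went the other way (101.0 and 180.6 against 433.7 and 347.0). Mbp read 631.7 and 684.1 against 428.4 and 332.5. Among spinous markers, Krt1 was higher in SL LRC (28130 and 25740 against 14830 and 10400). Dsc1 of that list was lower there (1486 and 1760 against 3173 and 2590). Basal markers went both ways. Krt14 was lower in SL LRC (18820 and 18020 against 22240 and 24110), and Col17a1 higher (17020 and 16260 against 11750 and 10120).

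Whether the label effect differed between SL and BL was tested directly. No guidance gene was called for this difference, and neither was any of the 18193 genes (0.0%) by limma, with 11 guidance genes and 1291 genes in all at an unadjusted p under 0.05. The lowest adjusted p among the 59 genes was that of Sema6a, whose label effect was -0.62 in BL and -2.72 in SL (difference -2.10 ± 0.61, adjusted p = 0.522). For Sema3d the effects were 1.51 and 3.49 (difference 1.97 ± 0.71, adjusted p = 0.616). The BL and SL label effects share no arrays, and over the 33 members above the floor on all arrays their Pearson correlation was 0.822, against 0.592 over all 10371 genes above it. The sign matched for 22 of the 33 (66.7%), close to the 65.5% of all those genes. These points share arrays and normalization within each comparison.

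**Figure D2:**
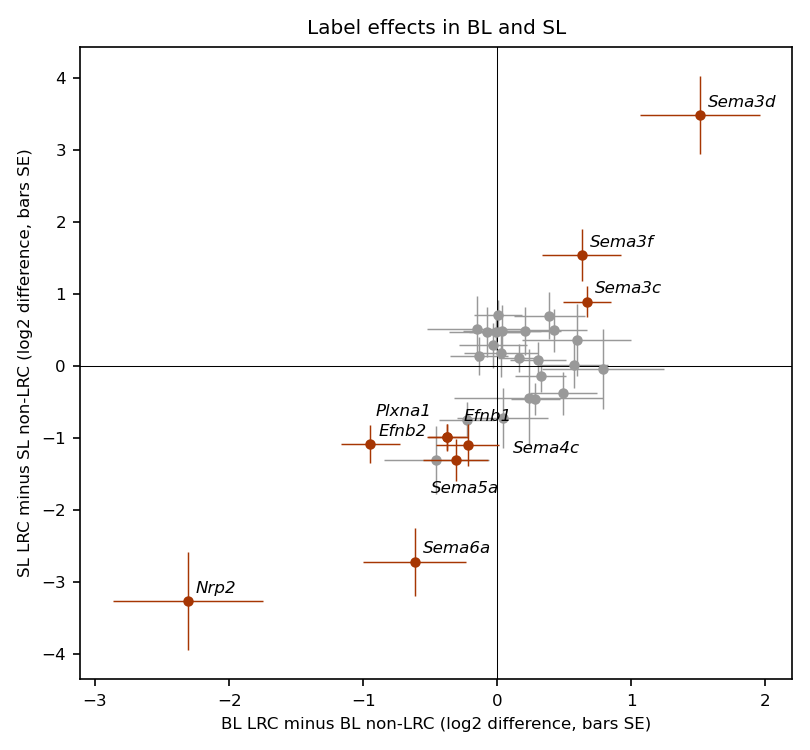
Log2 difference of LRC minus non-LRC in BL (horizontal) and in SL (vertical) for the 33 genes above the floor on all arrays, with SE bars. Brown points are called in SL, and the named ones run from Nrp2 (-2.31 and -3.27) to Sema3d (1.51 and 3.49); grey points are not called in SL.

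Next, SL was compared with BL, averaging the label classes (4 arrays against 6). The ephrins Efna3 and Efnb1, the Eph receptors Epha1 and Ephb6 and the membrane semaphorins Sema4c, Sema4g and Sema6a rose, while Sema3c and Sema5a fell. These risen genes were 1 of 5 ephrin-A and 1 of 3 ephrin-B genes, 1 of 9 EphA and 1 of 4 EphB receptors and 3 of 13 membrane semaphorins. Of 59 genes, 9 were called (15.3%, 7 higher and 2 lower) against 5.03% of all genes, of which 2.83% were higher and 2.2% lower. Sema5a read 1899 to 3861 over the 6 BL arrays and 473 to 1624 over the 4 SL arrays, with no overlap. It was 3-fold lower in SL (-1.58 ± 0.19, adjusted p = 9.21e-05), and 2 of its other probe sets gave -1.52 and -2.11 (adjusted p = 0.00326 and 6.54e-05). Sema3c was 2.11-fold lower (-1.08 ± 0.14, adjusted p = 0.00019), although SL LRC 1 at 3178 lay above BL non-LRC 3 at 2722. Its second probe set gave -0.999 (adjusted p = 0.00104).

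Of the genes that rose from BL to SL, Efna3, a lipid-anchored ephrin, read 1545, 1242 and 1528 in BL LRC, 1073, 1598 and 906 on the BL non-LRC arrays, 2794 and 2806 in SL LRC and 3222 and 2193 in SL non-LRC. All 4 SL arrays were above all 6 BL arrays, and the difference was 2.12-fold (1.08 ± 0.17, adjusted p = 0.000641). Ephb6, an Eph receptor without kinase activity, read 886 to 1295 over the BL arrays, 2330 and 2279 in SL LRC and 1532 and 1312 in SL non-LRC, again with no overlap (0.75 ± 0.14, adjusted p = 0.00372). Sema6a read 117, 83.6 and 47.5 in BL LRC against 146, 90.2 and 127 in BL non-LRC. Its rise of 3.41-fold (1.77 ± 0.31, adjusted p = 0.00179) came with high values in SL non-LRC only, since SL LRC at 98.9 and 164 overlapped BL. These 3 calls, and those of Sema3c and Sema5a, held without any 1 array.

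The other 4 calls in SL were less firm. Sema4g, a class 4 semaphorin, read 278, 101 and 238 in BL LRC, 167, 55.9 and 139 on the BL non-LRC arrays, 295 and 589 in SL LRC and 433 and 429 in SL non-LRC (1.56 ± 0.36, adjusted p = 0.0149). Its groups did not overlap, and the call was lost without SL LRC 2 or either SL non-LRC array (1.31, adjusted p = 0.107, without the first). Efnb1 (0.55 ± 0.12, adjusted p = 0.0132) overlapped BL in its SL LRC arrays and was lost without SL LRC 1 or SL non-LRC 1 (0.51, adjusted p = 0.079, without the latter). Epha1, a receptor for A-type ephrins, read 1075, 776 and 796 in BL LRC, 815, 757 and 448 on the BL non-LRC arrays, 1248 and 1796 in SL LRC and 1130 and 999 in SL non-LRC (0.74 ± 0.19, adjusted p = 0.0335). Sema4c read 851, 530 and 883 in BL LRC against 1050, 767 and 784 in BL non-LRC and also rose in SL (0.71 ± 0.19, adjusted p = 0.0335). Epha1 and Sema4c overlapped between the layers and were each lost without any 1 of 6 arrays. For Epha1 these were BL LRC 2 and 3, BL non-LRC 3, SL LRC 2 and SL non-LRC 1 and 2 (0.61, adjusted p = 0.181, without SL LRC 2), and for Sema4c BL LRC 2, BL non-LRC 2 and 3, SL LRC 1 and 2 and SL non-LRC 2 (0.56, adjusted p = 0.189, without the last). One of the other Epha1 probe sets gave -0.06 (adjusted p = 0.961).

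GL was then compared with SL (2 arrays against 4) and with BL (2 against 6). Against BL, 3 secreted semaphorins, Sema5a and Robo1 fell in GL, while 4 A-type ephrins, Efnb1, 3 Eph receptors, 3 plexins and 5 membrane semaphorins rose. Against SL, 11 of 59 genes were called (18.6%, 7 higher and 4 lower), and against BL 21 (35.6%, 16 higher and 5 lower), beside 8.3% and 17.1% of all genes. Among all genes, 4.39% were higher and 3.91% lower than in SL, and 8.66% were higher and 8.41% lower than in BL. The median log2 difference of the 59 genes was 0.29 against SL and 0.56 against BL, beside -0.03 and -0.02 over all genes. By family, the genes called against BL were 4 of 5 ephrin-A genes, 1 of 3 ephrin-B genes, 2 of 4 EphB and 1 of 9 EphA receptors, 3 of 9 plexins, 5 membrane semaphorins that rose and 1 that fell of 13, 3 of 7 secreted semaphorins, all lower, and 1 of 4 Robo receptors, also lower.

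Sema3c went furthest down. It read 308 and 254 in GL, under every other array, where the lowest value was 1452. It was 7.34-fold lower than in SL (-2.88 ± 0.19, adjusted p = 3.15e-07) and 15.5-fold lower than in BL (-3.95 ± 0.18, adjusted p = 6.96e-10). The second probe set gave -2.06 and -3.06 (adjusted p = 1.52e-05 and 2.01e-08). Sema3c thus stepped down at both boundaries, from BL to SL and from SL to GL, and within SL it was higher in the label-retaining class. The label effect was not shown to differ between SL and BL (difference 0.23 ± 0.28, adjusted p = 0.916).

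Sema3d read 693, 1028 and 1011 in BL LRC against 354, 444 and 198 in BL non-LRC, and 59.1 and 233 in GL. The geometric mean in GL (117.5) was close to that of SL non-LRC (131.3) and far below that of SL LRC (1471). Sema3d was 4.52-fold lower in GL than in BL (-2.18 ± 0.45, adjusted p = 0.00226) and 3.74-fold lower than the average of the SL classes (-1.90 ± 0.47, adjusted p = 0.0183), with overlap in both cases. GL 1 carried much of this, since without it the differences were -1.19 and -0.91 (adjusted p = 0.137 and 0.4), and the call against SL was also lost without SL LRC 2 or SL non-LRC 1. Sema3f read 963, 1140 and 1373 in BL LRC, 814, 933 and 534 on the BL non-LRC arrays and 432 and 547 in GL, with overlap (-0.92 ± 0.30, adjusted p = 0.0403 against BL). Its call was lost without any 1 of 8 arrays, namely BL LRC 2 and 3, BL non-LRC 1 and 2, both SL LRC and both GL arrays (-0.75, adjusted p = 0.305, without GL 1), and another probe set gave -0.29 (adjusted p = 0.77).

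Sema5a read 530 and 382 in GL. The fall against BL was 5.61-fold (-2.49 ± 0.24, adjusted p = 1.64e-06), with no overlap, and held without any 1 array. Against SL it was 1.87-fold (-0.91 ± 0.26, adjusted p = 0.0385), with SL LRC 2 at 473 between the GL arrays, and it was lost without SL LRC 1, SL non-LRC 1, GL 1 or GL 2 (-0.67, adjusted p = 0.31, without the last). The geometric mean of Sema5a was 449.9 in GL, near the 535.8 of SL LRC and below the 1326 of SL non-LRC. Its other probe sets gave -1.085, -1.132 and 0.099 against SL, none of them called (adjusted p = 0.0568, 0.0768 and 0.976). The other membrane semaphorins called in GL were all higher.

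Sema6a read 1280 and 1903 in GL, above every other array. It was 16.3-fold higher than in BL (4.03 ± 0.39, adjusted p = 1.41e-06) and 4.77-fold higher than in SL (2.25 ± 0.41, adjusted p = 0.00211). Without GL 2 the difference from SL was 1.97 (adjusted p = 0.0564). Its other probe sets gave 5.399 and 6.678 against BL (adjusted p = 2.29e-05 and 0.000343). Against SL they gave 2.339 and 2.69, neither of them called (adjusted p = 0.0571 and 0.201). The SL average joins unlike classes, since the geometric mean was 127.5 in SL LRC and 840 in SL non-LRC, beside 1561 in GL. Sema6a and Sema3c, a membrane-bound and a secreted semaphorin, thus ran in opposite directions from BL to GL.

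Sema4g read 1578 and 1035 in GL, above every other array, and was 8.91-fold higher than in BL (3.15 ± 0.45, adjusted p = 9.34e-05). Against SL it missed the threshold (1.59 ± 0.48, adjusted p = 0.0503), and with the replicate number as a block within BL it had an adjusted p of 0.00712. Sema4a, a class 4 semaphorin also made by immune cells, read 505, 606 and 715 in BL LRC, 416, 510 and 459 on the BL non-LRC arrays, 1046 and 660 in SL LRC, 557 and 471 in SL non-LRC and 905 and 1652 in GL. It was 2.32-fold higher in GL than in BL (1.22 ± 0.26, adjusted p = 0.00358), and without GL 2 it gave 0.78 (adjusted p = 0.15).

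A further 3 genes were near the floor outside GL. Sema6d, another class 6 semaphorin, read 881 and 230 in GL and at most 101 elsewhere (3.57 ± 0.70 against BL, adjusted p = 0.00159, and 3.55 ± 0.74 against SL, adjusted p = 0.00598). Plxnc1, the receptor of semaphorin 7A, read 650 and 387 in GL and at most 119 elsewhere (4.28 ± 0.99 against BL, adjusted p = 0.00552, and 3.82 ± 1.05 against SL, adjusted p = 0.0324). Sema7a itself, a lipid-anchored semaphorin, read 184 and 118 in GL and at most 53.4 elsewhere (3.22 ± 0.84 against BL, adjusted p = 0.0128, and 2.24 ± 0.89 against SL, adjusted p = 0.152). Ligand and receptor thus both had their highest readings in GL. With values under the floor raised to it, the folds against BL were 10.2 for Sema6d, 15.1 for Plxnc1 and 4.74 for Sema7a.

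These 3 genes were above the floor on 9, 8 and 7 of the 12 arrays. Leaving out GL 1 ended the calls against BL for Sema6d (2.61, adjusted p = 0.0976), Plxnc1 (3.91, adjusted p = 0.0985) and Sema7a (2.90, adjusted p = 0.152), the last also being lost without GL 2. Against SL, Sema6d was lost without GL 1 (2.59, adjusted p = 0.187), and Plxnc1 without SL LRC 1, SL non-LRC 2, GL 1 or GL 2 (3.44, adjusted p = 0.256, without GL 1). All 5 other Plxnc1 probe sets were higher in GL than in BL, by 2.81 to 5.41, and 4 of them were called. GL 1 was also the higher GL array for Sema6d, Plxnc1 and Sema7a, as it was for the summed Langerhans and myeloid markers and T cell markers, and the part of those cells in these values was not tested.

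Among receptors and ephrins, Robo1, the Slit receptor, fell towards GL. It read 2829, 1510 and 2336 in BL LRC, 2422, 2176 and 1232 on the BL non-LRC arrays, 1321 and 1894 in SL LRC, 1221 and 1042 in SL non-LRC and 355 and 451 in GL. Both GL arrays lay below all others, 3.34-fold below SL (-1.74 ± 0.29, adjusted p = 0.000965) and 5.01-fold below BL (-2.32 ± 0.27, adjusted p = 1.07e-05). A second probe set above the floor on all arrays gave -1.15 and -1.85 (adjusted p = 0.107 and 0.0027). Its ligands Slit1 and Slit3 were above the floor on all arrays and called in no comparison, with 41.5 to 145 for Slit1 and 101 to 534 for Slit3, while Slit2 was above it on 2 arrays.

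Plxna1 rose instead. It read 2096, 2291 and 1991 in BL LRC, 3069, 2671 and 2547 on the BL non-LRC arrays and 5246 and 5361 in GL, above every other array. The rise was 2.46-fold against SL (1.30 ± 0.15, adjusted p = 5.05e-05) and 2.19-fold against BL (1.13 ± 0.14, adjusted p = 2.69e-05). Its second probe set gave 0.73 and 0.76, neither of them called (adjusted p = 0.379 and 0.242). Plxnb2, a receptor of class 4 semaphorins, read 2152, 2334 and 2271 in BL LRC, 1378, 2065 and 2044 on the BL non-LRC arrays, 2195 and 2528 in SL LRC, 2659 and 2516 in SL non-LRC and 2455 and 3685 in GL (0.58 ± 0.19 against BL, adjusted p = 0.0442). This call was lost without any 1 of 9 arrays: all 3 BL LRC, BL non-LRC 1, all 4 SL and GL 2 (0.29, adjusted p = 0.535, without the last).

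**Figure D3:**
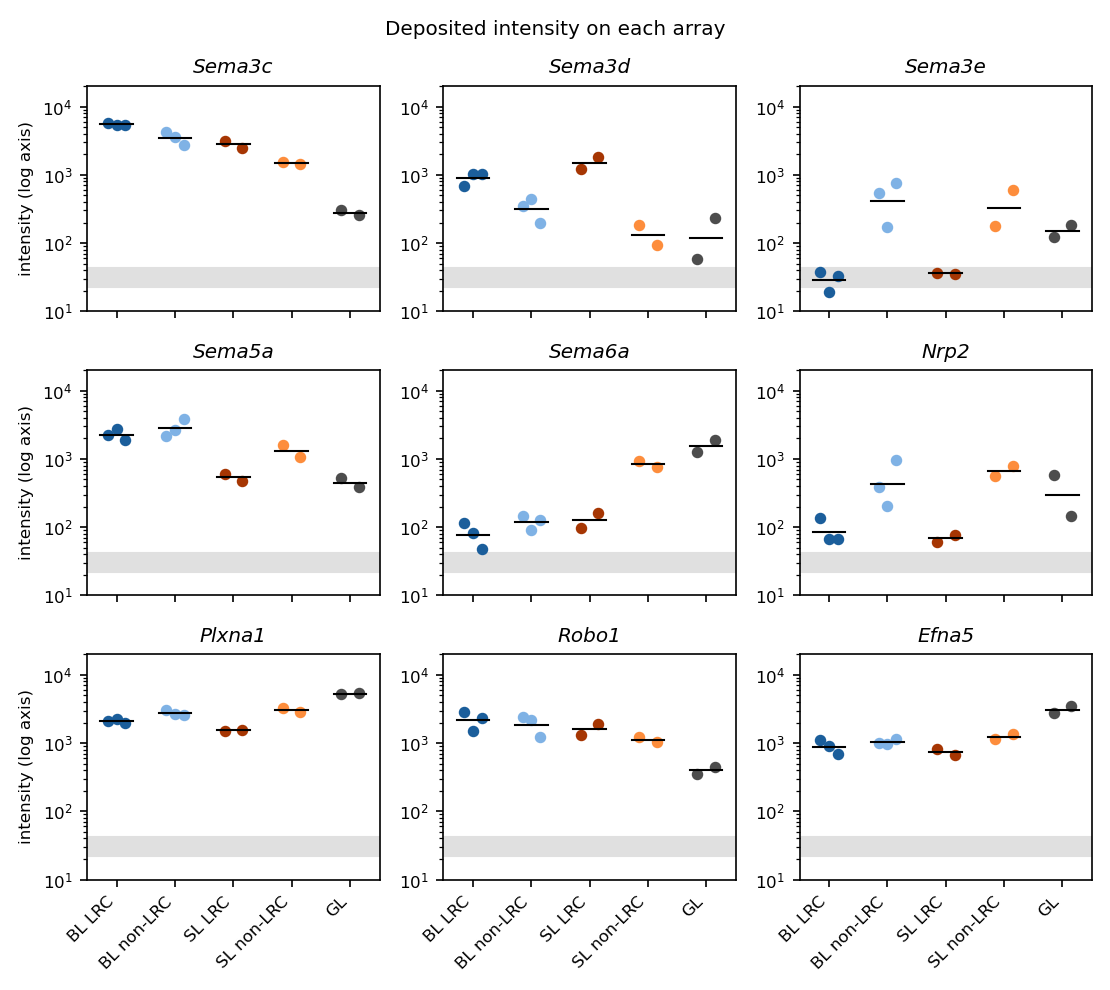
Deposited intensity (log axis) of 9 genes on each array, with 1 point per array, a line at the mean of the log2 values of each group and a grey band over the range of background floors (22.4 to 42.6). Sema3c, Sema5a and Robo1 fall towards GL, Sema6a, Plxna1 and Efna5 rise, and Sema3e and Nrp2 are lower and Sema3d higher in the LRC groups, the BL difference of Sema3d being uncalled.

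Efna5, a lipid-anchored ephrin and ligand of EphA4 and other EphA receptors, read 1104, 920 and 689 in BL LRC, 1017, 975 and 1129 on the BL non-LRC arrays, 833 and 661 in SL LRC, 1150 and 1354 in SL non-LRC and 2756 and 3463 in GL. GL stood above all other arrays, 3.21-fold above SL (1.68 ± 0.22, adjusted p = 0.000119) and 3.22-fold above BL (1.69 ± 0.21, adjusted p = 1.73e-05). A second probe set gave 1.59 and 1.84 (adjusted p = 0.00086 and 3.74e-05). Efna3 read 3402 and 3110 in GL and was 2.53-fold above BL (1.34 ± 0.21, adjusted p = 0.000211). Efna5 did not pass the test between SL and BL (0.00 ± 0.16, adjusted p = 0.996), while Efna3 had risen there.

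Efna4 read 289, 340 and 387 in BL LRC, 339, 348 and 342 on the BL non-LRC arrays, 389 and 624 in SL LRC, 399 and 410 in SL non-LRC and 706 and 702 in GL (1.05 ± 0.25 against BL, adjusted p = 0.00766). Its call was lost without GL 1 (1.05, adjusted p = 0.0769) or GL 2. Efna1 read 1477, 1950 and 1294 in BL LRC, 1549, 1780 and 1377 on the BL non-LRC arrays, 2448 and 2313 in SL LRC, 2051 and 1440 in SL non-LRC and 2268 and 3034 in GL (0.75 ± 0.20 against BL, adjusted p = 0.0137). Without GL 2 it gave 0.54 (adjusted p = 0.229), and its second probe set gave 0.36 (adjusted p = 0.303). The remaining ephrin-A gene, Efna2, was not called, with 171 to 611 over the 12 arrays. Efnb1 read 996, 1022 and 1130 in BL LRC, 1369, 1328 and 1372 on the BL non-LRC arrays and 2195 and 2234 in GL, 1.86-fold above BL (0.89 ± 0.15, adjusted p = 0.000558) with no overlap.

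Of the Eph receptors, Ephb3 read 473, 746 and 466 in BL LRC, 400, 346 and 427 on the BL non-LRC arrays, 416 and 438 in SL LRC, 673 and 461 in SL non-LRC and 1372 and 1462 in GL. The GL arrays were above all others (1.54 ± 0.26 against SL, adjusted p = 0.00132, and 1.62 ± 0.25 against BL, adjusted p = 0.00018). Epha4, which binds ephrins of both classes, read 735, 904 and 977 in BL LRC, 838, 1319 and 777 on the BL non-LRC arrays, 1691 and 1247 in SL LRC, 1417 and 1235 in SL non-LRC and 2452 and 2630 in GL. It was 2.8-fold above BL (1.48 ± 0.22, adjusted p = 0.000119) and 1.83-fold above SL (0.87 ± 0.23, adjusted p = 0.0268). The latter call was lost without SL LRC 2, SL non-LRC 2, GL 1 or GL 2 (0.82, adjusted p = 0.166, without the last). Ephb6 read 2027 and 2370 in GL, 2.03-fold above BL (1.02 ± 0.18, adjusted p = 0.000559), beside 2330 and 2279 in SL LRC.

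**Figure D4:**
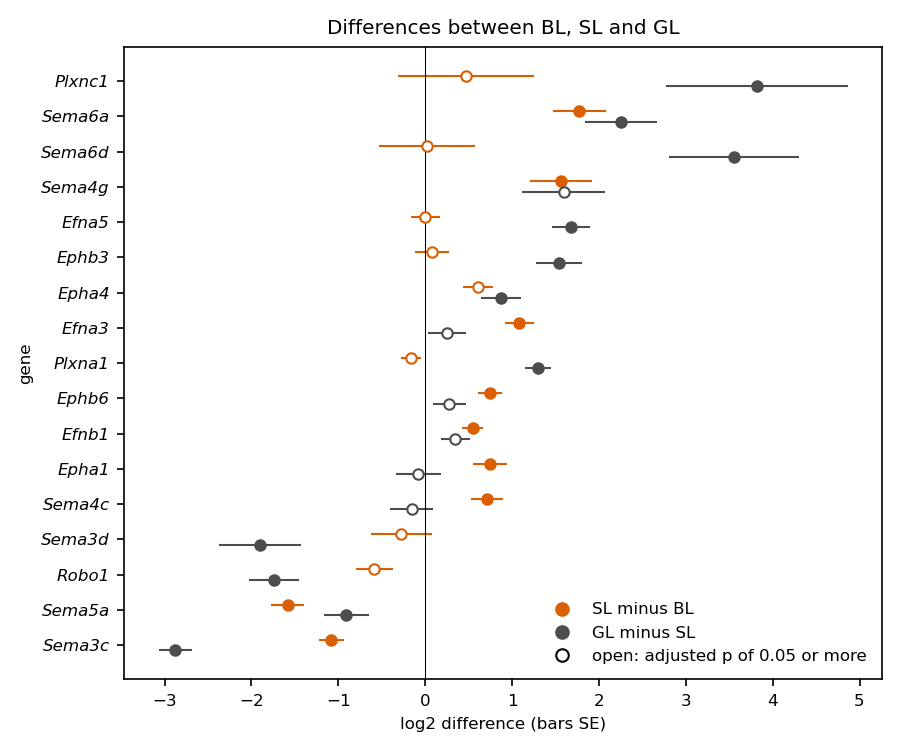
Log2 differences of SL minus BL (orange) and GL minus SL (dark grey) with SE bars for the 17 genes called in either, filled where called and open where not. Sema3c (-1.08 and -2.88), Sema5a (-1.58 and -0.91) and Sema6a (1.77 and 2.25) are filled for both.

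Among the 32 genes called in no comparison were several with readings well above the floor on every array. Sema4b, a class 4 semaphorin, read 3083 to 4499 over the 12 arrays, with group geometric means between 3335 and 4085. The plexins Plxna2 and Plxnb1 had group means between 1411 and 2094 and between 515.1 and 978.1. Sema4d, the ligand of plexin-B1, had group means between 433.2 and 634.5, and the receptor Epha2 between 446.0 and 704.1. Ephb4, the receptor of ephrin-B2, read 2480, 1489 and 1703 in BL LRC, 2438, 2337 and 1039 on the BL non-LRC arrays, 1648 and 1728 in SL LRC, 1657 and 1339 in SL non-LRC and 1104 and 983 in GL, and missed the threshold (-0.81 ± 0.28 against BL, adjusted p = 0.0531). With the replicate number as a block within BL, this difference had an adjusted p of 0.0125. The same block brought 3 more differences under the threshold: Efnb2 in GL against BL (0.61, adjusted p = 0.02), Epha1 in GL against BL (0.66, adjusted p = 0.0373) and Epha4 in SL against BL (0.61, adjusted p = 0.0265).

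Netrins, their receptors and the cytoplasmic partners of guidance receptors were read beside these families, as a list of 75 genes of which 74 were measured. In BL, 4 of them were called (5.41%, against 1.53% of all genes): Dpysl3, which encodes a collapsin response mediator (-2.38 ± 0.46, adjusted p = 0.0112), the neogenin ligand Rgma (-1.49, adjusted p = 0.019) and dystroglycan Dag1 (-0.96, adjusted p = 0.014) were lower in BL LRC, and Srgap2, a GTPase-activating protein named for Slit and Robo, was higher (1.25, adjusted p = 0.0128). In SL, 6 were called (8.11%, against 4.19% of all genes), all lower in SL LRC, among them the netrin Ntn4 (-1.85, adjusted p = 0.00108), the adaptor Nck2 (-1.83, adjusted p = 0.00164), the exchange factor Vav2 (-1.35, adjusted p = 0.0189) and Farp1 (-2.01, adjusted p = 0.0343). Between SL and BL, 8 were called (10.8%, against 5.03% of all genes, 6 of them higher), led by the adaptor Grb7 (1.09, adjusted p = 0.000599) and Dpysl3 (2.28, adjusted p = 0.0009), with Rgma (1.35, adjusted p = 0.00285) and Srgap2 (0.90, adjusted p = 0.0105).

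In GL, 15 of the 74 were called against SL (20.3%, 11 higher and 4 lower) and 22 against BL (29.7%, 17 higher and 5 lower), beside 8.3% and 17.1% of all genes. Nck2, which links Eph receptors to the actin machinery, read 3625 and 3272 in GL and 316.8 to 1368 elsewhere, and rose by 2.43 against SL (adjusted p = 1.58e-05) and by 1.99 against BL (adjusted p = 1.49e-05). Met, the hepatocyte growth factor receptor that can pair with B-type plexins, read 487.4 and 797.8 in GL and 1913 to 3946 elsewhere, and was lower by both comparisons (-1.97 against SL, adjusted p = 2.4e-05, and -2.43 against BL, adjusted p = 3.07e-07). Flrt3, a partner of Unc5 and Robo receptors, read 3895 and 5472 in GL and rose (1.39 against SL, adjusted p = 0.000135, and 1.41 against BL, adjusted p = 1.72e-05). Ntn4 (1.75 against SL, adjusted p = 0.000212) and Dpysl2 (2.74 against BL, adjusted p = 5.45e-05) were higher as well.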

How the data were processed

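The deposited values are microarray intensity values on a linear scale, 1 per probe set and array, from which the authors' software is not given in the sources used here. Per the deposited table, every array has the same trimmed mean, and values are at least 1, so log2 was taken with nothing added. Of 45101 probe sets, 34945 have 1 gene in the platform annotation and are analysed; where a gene had several (9010 genes), that of highest mean log2 stood for it. limma 3.58.1 in R 4.3.3 fitted 5 group means over 12 arrays (lmFit, eBayes with a variance trend) with Benjamini-Hochberg adjustment over 18193 genes at 0.05, and was tested on simulated data first. The number of arrays limits the precision. Figures were drawn in Python 3.11.15 with matplotlib 3.10.9.

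The members, the gene lists and the tests were chosen with earlier results of these data known. Members called in any comparison are given in full, with up to 6 others of highest mean log2, and up to 4 genes of smallest p per comparison from the list of other guidance genes and effectors. The marker lists come from general knowledge of skin. A group above the floor on none of its arrays gives only a bound.

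BL LRC and BL non-LRC arrays of the same number deviated together (correlation of deviations from the group means 0.178 to 0.317 for same numbers, at most 0.00907 for other numbers), while SL arrays did not (0.0373), so numbers were taken to pair arrays within BL. Alternatives covered scaling, an added constant of 32, a filter on low values, probe set choice, the variance model, the array set, the replicate block and leaving out arrays.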

Additional observations from a re-analysis of the deposited data

How the results depend on the processing

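Over 1343 recalculations of the called differences of single guidance genes, 1173 kept the call, 170 lost it and 0 changed direction. Without the variance trend fewer guidance genes were called: 1 for the label in BL, 2 for the label in SL, 5 between SL and BL, 7 between GL and SL and 15 by the test over all groups, and the cause was not tested. The array-set term left 5 for the label in SL. Leaving out 1 array at a time gave 1 to 3 called genes for the label in BL, 4 to 12 for the label in SL, 6 to 9 between SL and BL, 7 to 12 between GL and SL, 15 to 23 between GL and BL and 19 to 26 by the test over all groups. The BL count fell to 1 without BL LRC 2 or 3, without BL non-LRC 3 and without either SL LRC array. The SL count was 6, 4 and 5 without SL LRC 1, SL LRC 2 and SL non-LRC 2, and the count between GL and SL was 7 without GL 1 or GL 2. Fewer arrays stand behind each of these fits.

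The replicate number as a block over all arrays gave 4 called genes for the label in BL, 12 for the label in SL, 8 between SL and BL, 12 between GL and SL and 23 between GL and BL, and the block within BL gave 4, 12, 10, 12 and 24 and ended no call. The block over all arrays ended the calls of Epha1 (adjusted p = 0.111) and Sema4c (adjusted p = 0.051) between SL and BL and no others. The block within BL and the fit without both arrays lacking Y-linked signal were chosen after seeing the data. Centring arrays on their medians shifted the median of all genes to 0.13 for the label in SL, -0.19 for GL against SL and -0.16 for GL against BL, and the share of lower genes among those called went from 64.5% to 51.1%, 47.1% to 64.8% and 49.3% to 60.9%. Under it, 3 guidance genes were higher and 8 lower for the label in SL, 6 and 4 in GL against SL, and 14 and 6 in GL against BL. Another probe set existed for 95 called results and had the same sign in 92. Of the 48 where it was above the floor on all arrays, 47 had the same sign and 27 were also called. Genes within a few times the floor, among them Sema3e in the LRC groups and Sema6d, Plxnc1 and Sema7a outside GL, have differences that depend on values close to background.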
